A study of Mus musculus with 4 samples.

Results

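Macrophages and Langerhans cells are the resident phagocytes and antigen-presenting cells of skin. This report follows 9 genes that mark or sustain them: Csf1r, Csf1, Cd68, Mrc1, Cd163, Cd207, Lyz2, Mpeg1 and Fcgr3. Its members were the non-control probes whose gene name in the scanner files is one of these symbols, 14 of 41174 probes in all, for 9 of the 17555 genes measured. All 14 were well above background on all 4 arrays, so all were among the 26070 probes tested. The rule itself uses gene names and no measured value.

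The samples were full-thickness back skin of 42-day-old male mice, and the labels place its follicles in telogen, when hair growth rests. In the group called cKO, on C57BL/6, Fgf18 (a secreted fibroblast growth factor) was deleted conditionally in epithelial cells positive for keratin 5, so macrophages are not the cells in which the deletion was directed. The group called WT was C57BL/6, and the labels do not say whether it carried a Cre or a floxed allele. PolyA RNA of 3 mice made up the 1 pool of each genotype, and both of its one-colour arrays, 2 per genotype, are technical duplicates. Every SD, standard error and p-value given here measures the spread between duplicate arrays, and the tests compare 2 RNA pools and not the genotypes.

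The receptor Csf1r, a tyrosine kinase on macrophages and Langerhans cells, is needed for their survival and has the ligands Csf1 and Il34. In skin, Il34 made by keratinocytes is known to maintain Langerhans cells, the dendritic cells of the epidermis, which carry langerin (Cd207). Macrophages of the dermis carry the mannose receptor (Mrc1) and the haemoglobin scavenger receptor Cd163. Cd68 is a glycoprotein of their lysosomes, Lyz2 is lysozyme M, Mpeg1 is a pore-forming protein of phagosomes and Fcgr3 is an activating receptor for antibody. In whole skin, fewer cells of a type and less RNA per cell cannot be told apart.

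The levels below are those of single probes of 60 bases, and the stretches shown identify the probes of Cd207, Csf1, Mrc1 and Cd163, which had the smallest p-values with Lyz2 probe 1, and both probes of Lyz2 and of Mpeg1, whose changes are compared within the gene. Bases 1 to 30 are given, except for Cd163, where bases 31 to 60 are given with the letters AATAAA in capitals. They are written 5′ to 3′ as deposited.
Cd207: ccttggaggagcttgggttaaacgggtgag
Csf1: tgtggggcttacttagccttctggttacag
Mrc1: ttgagaactgtatttatccacatgtagaat
Cd163: aaaaatgttattAATAAAgaaacggaaatc
Lyz2 probe 1: cttaagttccttcattcacactaactctga
Lyz2 probe 2: aacgttgtgagtttgccagaactctgaaaa
Mpeg1 probe 1: aagagggctaattgcacaacctctccatcg
Mpeg1 probe 2: taccttggccatctatggtactcggaagta
AATAAA is the usual signal for polyadenylation. Searched on both strands, it was found in the Cd163 probe and in none of the other probes listed, and 8.8% of all probes on the array hold it. On mm9 the Cd207 probe lies at chr6:83621442-83621501 on the minus strand, the Csf1 probe at chr3:107544333-107544392 on the minus strand, the Mrc1 probe at chr2:14253304-14253363 on the plus strand and the Cd163 probe at chr6:124280484-124280543 on the plus strand. Lyz2 probe 1 lies at chr10:116714450-116714509 and probe 2 at chr10:116719175-116719234, both on the minus strand. Mpeg1 probe 1 lies at chr19:12539387-12539446 and probe 2 at chr19:12537697-12537756, both on the plus strand. Exons are not named for the probes, because mm9 annotation was not used.

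The processed signal of each array was divided by that array's 75th percentile, which was 1403 and 1453 for cKO and 1271 and 1316 for WT. Levels are log2 values on this scale, so that 0 is the 75th percentile, and changes are cKO minus WT. Duplicate arrays correlated across probes at r = 0.996 in cKO and 0.995 in WT (probes are not independent replicates). The median absolute change between the pools was 0.20 on the log2 scale, and the median change of all probes -0.06. Fgf18 itself, measured in whole skin by 1 probe, had levels of 1.86 and 1.86 in cKO and 2.18 and 2.21 in WT, a change of -0.33 (adjusted p = 0.0053). Which part of Fgf18 was removed is not in the labels, so this probe checks nothing. Although both groups are labelled as telogen, all 9 measured genes of the hair shaft and inner root sheath, which mark growing follicles, were higher in the cKO pool. Of these, Krt34 and Krt25 were not well above background in WT, passed the filter through cKO alone, and were at least 633-fold and 704-fold higher in cKO. The list's summed scaled signal was 339 and 336 in cKO against 1.91 and 2.0 in WT. The part of this difference in any result below was not tested.

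None of the 14 marker probes was called, that is, none reached both an adjusted p under 0.05 in limma and a change of at least 1.5-fold. Of all 26070 probes tested, 9.72% were called. Langerin, Cd207, was the one probe with a higher level in the cKO pool, and the other 13 had lower levels, against 58.1% of all probes with a lower level. With quantile normalization, with or without normexp background correction, 10 of the 14 were below 0. As reported, 8 of the 9 genes were lower by their brightest probe. The changes ran from -0.43 (Mpeg1 probe 2) to 0.39 (Cd207), with a median of -0.09 over the 9 genes, each taken by its brightest probe, against -0.05 over all 17555 genes. An adjusted p under 0.05 at any size of change was reached by 5 of the 14 probes, those of Csf1, Mrc1, Cd207, Cd163 and probe 1 of Lyz2, against 50.3% of all probes. Of the 5, 4 were lower and 1 higher, against 31.1% and 19.2% of all probes. Without adjustment, 7 of the 14 probes had a p under 0.05, against 58.8% of all probes. The 95% interval of the change lay inside 1.5-fold in both directions for 11 probes, and reached past it for Cd207, Csf1r probe 3 and Mpeg1 probe 2.

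**Figure D1:**
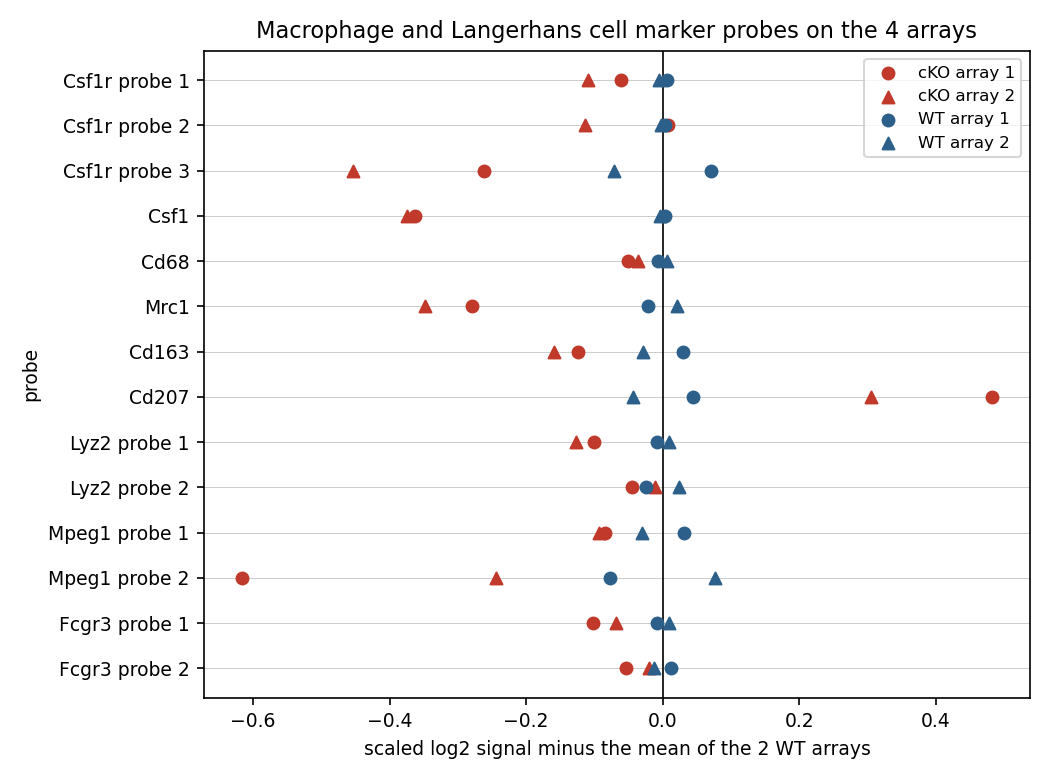
Each row is 1 marker probe and each point 1 array (circles are array 1 and triangles array 2 of a pool, red cKO, blue WT), with the scaled log2 signal minus the mean of the 2 WT arrays on the x axis. Cd207 is the one row with both red points to the right of the blue points, and Csf1 and Mrc1 have both red points at least 0.26 to the left of the blue points.

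Csf1, the growth factor that Csf1r binds, had the change with the smallest p among the markers. Its level was 1.76 and 1.75 in cKO and 2.13 and 2.12 in WT. The cKO arrays were both lower, and the gap between the nearest arrays of the pools, 0.36, was wider than the difference between the duplicates of either pool. The cKO arrays averaged 1.75 ± 0.0087 and the WT arrays 2.12 ± 0.0051 (mean ± SD of n = 2 arrays), a change of -0.37 (SE 0.025, 95% interval -0.44 to -0.29, adjusted p = 0.0040), or 1.29-fold lower. The Csf1 probe is printed 10 times on each array, and it is the one marker probe with more than 1 spot. Its spots ran from 4334 to 4962 and from 4452 to 5193 in processed signal on the cKO arrays, and from 5166 to 5862 and from 5334 to 5998 on the WT arrays. Spots of 1 array share their RNA and are not replicates. Over 16 alternative ways of processing the change of Csf1 stayed between -0.37 and -0.29, with an adjusted p of at most 0.040, and it was under 1.5-fold in each.

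Csf1r itself was measured by 3 probes on chromosome 18, numbered from the brightest. Probe 1 had levels of 2.89 and 2.84 in cKO and 2.95 and 2.94 in WT, which do not overlap but lie close together. Its change was -0.09 (SE 0.031, adjusted p = 0.101). Probe 2 had 0.47 and 0.35 in cKO and 0.46 and 0.46 in WT. Here the pools overlapped, and the change was -0.05 (SE 0.053, adjusted p = 0.45). Probe 3, with levels of -3.90 and -4.09 in cKO and -3.56 and -3.70 in WT, gave -0.36 with a wide 95% interval of -0.64 to -0.07 (adjusted p = 0.053). The changes of the 3 probes thus differed by up to 0.30. The lower levels of probes 1 and 2 were not kept under every setting: probe 1 had 0.014 with normexp background correction and quantile normalization, and probe 2 had 0.0081 without cKO replicate 2.

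The genes of dermal macrophage scavenging, Mrc1 and Cd163, were both lower on the cKO arrays. Mrc1, which takes up glycoproteins with mannose ends, had levels of 2.11 and 2.04 in cKO and 2.37 and 2.41 in WT. Both cKO arrays lay below both WT arrays, by at least 0.26. The cKO arrays averaged 2.07 ± 0.049 and the WT arrays 2.39 ± 0.030 (mean ± SD of n = 2 arrays), a change of -0.31 (SE 0.040, 95% interval -0.43 to -0.19, adjusted p = 0.011). The change of Mrc1 ran from -0.35 to -0.25 over the alternatives. Its adjusted p rose to 0.055 without cKO replicate 2, to 0.052 without WT replicate 2 and to 0.055 without the filter on dim probes, within a range from 0.00029 to 0.055. Cd163, which clears haemoglobin bound to haptoglobin, had 2.44 and 2.41 in cKO and 2.60 and 2.54 in WT. The pools did not overlap, but the gap was only 0.095, and the change of -0.14 (SE 0.036, adjusted p = 0.047) was the smaller of the pair. Over the alternatives it ran from -0.17 to -0.05, with adjusted p from 0.0058 to 0.32, and without any 1 of the 4 arrays the adjusted p was over 0.05.

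Cd207, the langerin of Langerhans cells, went the other way. In processed signal, cKO gave 3455 and 3166 and WT 2311 and 2250, and the scaled level was 1.30 and 1.12 in cKO against 0.86 and 0.77 in WT. The 2 cKO arrays were both higher, and they differed from each other by more than the WT arrays did. The cKO arrays averaged 1.21 ± 0.13 and the WT arrays 0.82 ± 0.062 (mean ± SD of n = 2 arrays), a change of 0.39 (SE 0.080, 95% interval 0.15 to 0.63, adjusted p = 0.029), or 1.31-fold higher. The direction was the same under all 16 alternatives, between 0.31 and 0.48. The adjusted p ran from 0.010 to 0.105. It was 0.074 without cKO replicate 1, 0.075 without WT replicate 1, 0.105 without WT replicate 2 and 0.095 without the filter on dim probes. Of all probes tested, 77.1% had an absolute change no larger than that of Cd207.

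**Figure D2:**
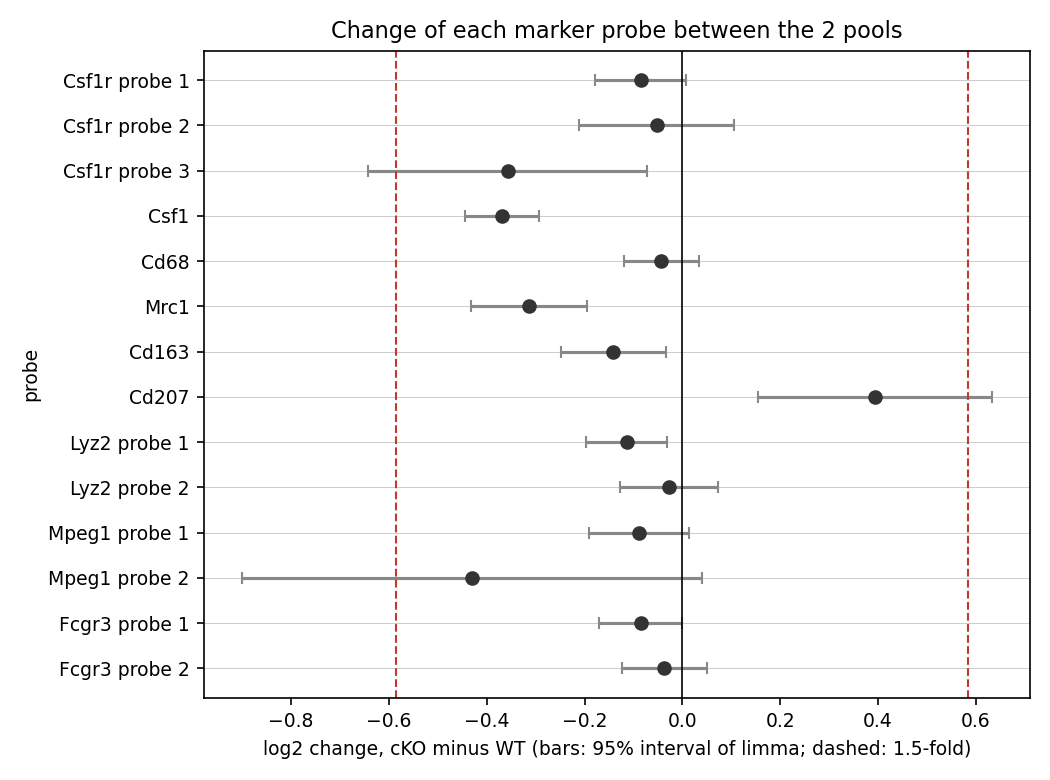
Points are the log2 change (cKO minus WT) of each marker probe and bars its 95% interval from limma on 4 arrays, with dashed lines at 1.5-fold. Every point lies inside the dashed lines, and the bars of Csf1r probe 3, Mpeg1 probe 2 and Cd207 cross one of them.

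The markers of the phagosome, the lysosome and antibody binding had changes of at most 0.11 in size at their brightest probes. Cd68 had levels of 0.62 and 0.64 in cKO and 0.67 and 0.68 in WT, a change of -0.04 with a 95% interval of -0.12 to 0.03 (adjusted p = 0.25). That interval excludes a 1.5-fold change either way. Lyz2, which digests bacterial cell walls, was measured by 2 probes. Probe 1 had 6.84 and 6.81 in cKO and 6.93 and 6.95 in WT, with a change of -0.11 (SE 0.027, adjusted p = 0.042), and probe 2 had -0.03 (SE 0.033, adjusted p = 0.52) with overlapping pools. Both signs turned with normexp and quantile normalization (0.012 and 0.054) and with quantile normalization (0.0092 and 0.040), and that of probe 2 also with the 75th percentile taken over spots above background on all arrays (0.0046).

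Lyz2 has a close relative, Lyz1, also on chromosome 10, so cross-hybridisation between them is possible and single values are uncertain. The Lyz1 probe had a change of 0.05 (adjusted p = 0.214). The best local alignment of the Lyz1 probe with Lyz2 probe 1 covers 17 positions, of which 13 are identical, and that with Lyz2 probe 2 covers 16, of which 12 are identical. No long stretch is thus shared between these probes themselves. The 2 probes of Lyz2 itself align over only 8 positions. The probes were not aligned with the transcript of the other gene, so these values say nothing about cross-hybridisation, which was not tested.

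Mpeg1 probe 1 had levels of 1.88 and 1.87 in cKO and 2.0 and 1.93 in WT, a change of -0.09 (SE 0.034, adjusted p = 0.113). Probe 2, with a processed signal of only 64.1 and 86.0 in cKO and 84.5 and 97.3 in WT, gave -0.43 with a 95% interval of -0.90 to 0.04 (adjusted p = 0.102). This was the largest change in size among the 14 probes and had the largest standard error, 0.16, and its cKO duplicates lay further apart than the nearest arrays of the pools. Fcgr3 probe 1 had 2.68 and 2.72 in cKO and 2.78 and 2.79 in WT, a change of -0.09 (SE 0.029, adjusted p = 0.085), and probe 2 had -0.04 (SE 0.029, adjusted p = 0.36). The Fcgr3 probes differed in change by 0.05. For Fcgr3 probe 1 the sign turned with quantile normalization (0.0012).

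In all, 12 of the 14 probes had arrays that did not overlap between the pools, 11 with cKO lower and 1 with cKO higher. Among all probes tested, 79.8% did not overlap, 47.8% with cKO lower and 32% with cKO higher, so the count of 12 is close to the background. The probes that did overlap were Csf1r probe 2 and Lyz2 probe 2.

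**Figure D3:**
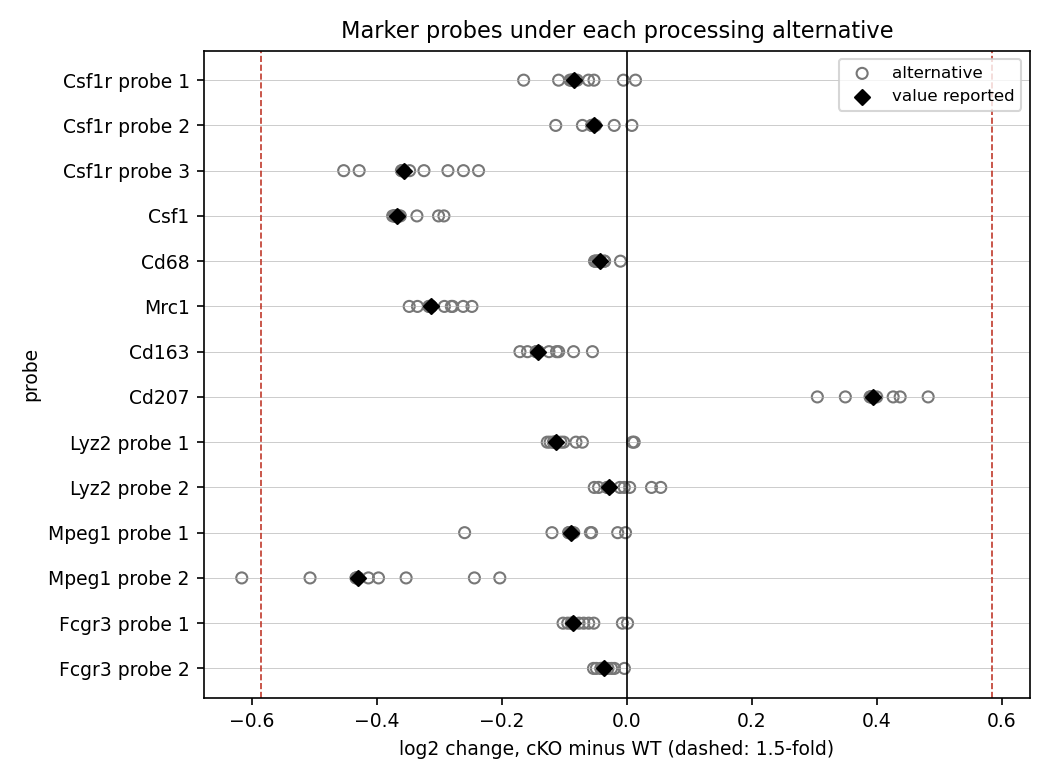
Black diamonds are the log2 change of each marker probe as reported, open circles the same under each processing alternative, and dashed lines 1.5-fold. For the alternative that averages the probes of a gene, the circle is the gene's mean, drawn in the row of its brightest probe. Csf1, Mrc1, Cd163, Cd68, Csf1r probe 3, both Mpeg1 probes and Fcgr3 probe 2 keep values below 0 in every alternative. Cd207 keeps values above 0 in each, while circles of Csf1r probes 1 and 2, Lyz2 and Fcgr3 probe 1 reach across 0.

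The other genes of these cells were read from 7 related lists, which hold 106 measured genes besides the markers. Of these, 2 were called higher and 6 lower in the cKO pool, 7.55% in all, against 10.4% of all genes called by their brightest probe (5.64% higher and 4.8% lower). One of the 2 called higher, Il12b, passed the filter through the cKO arrays alone, so its call supports nothing. An unadjusted p under 0.05, counted for some lists below, was reached by 61.2% of all genes. Below 0 were 71 of the 106, against 57.1% of all genes, and the median change was -0.12. Among the colony-stimulating factors and their receptors none of 7 measured genes was called by limma (4 had an unadjusted p under 0.05), with a median of -0.04. Il34, the second ligand of Csf1r, had a change of -0.12 (SE 0.025, adjusted p = 0.035), between -0.12 and -0.020 over the alternatives. Csf2ra, a receptor chain for granulocyte-macrophage colony-stimulating factor, had -0.04 (adjusted p = 0.226; 0.062 and 0.060 with the quantile settings). Flt3, a receptor of dendritic cell precursors, had levels of -4.83 and -4.84 in cKO and -5.44 and -4.84 in WT. It was well above background on 3 of the 4 arrays and passed the filter through cKO alone. Its change, 0.31 with all arrays and 0.61 without WT replicate 2, therefore supports nothing.

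Among 27 other macrophage and myeloid genes, 1 fell and none rose, with a median of -0.10. It was Trem2, a lipid-sensing receptor of macrophages, at -0.46 and -0.47 in cKO against 0.58 and 0.50 in WT. The pools lay far apart, with a change of -1.0 (SE 0.038, adjusted p = 0.0021), or 2.0-fold lower, and Trem2 was called under all 16 alternatives. Its other probe gave -0.73. The brightest genes of the list were the protease Ctss (-0.26, adjusted p = 0.0094; -0.13 and -0.11 with the quantile settings) and the adaptor Tyrobp, through which Trem2 signals (-0.04, adjusted p = 0.34; 0.094 and 0.092 with the quantile settings). Adgre1, which encodes the macrophage marker F4/80 and is named here after its value was seen, had -0.25 (adjusted p = 0.0072). Without WT replicate 2, Cybb, a subunit of the phagocyte oxidase, was also called (-0.67, against -0.43 with all arrays).

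Genes of resident dermal macrophages and scavenger receptors moved in both directions: 1 of 17 rose and 2 fell, with a median of -0.20. Below 0 were 12 of the 17. Among those above 0 but not called, Mgl2 had 0.40 (adjusted p = 0.0042), Cd209b 0.36 (adjusted p = 0.0044) and Cd209f 0.31 (adjusted p = 0.0061). These genes are named here after their values were seen. Marco, a scavenger receptor for bacteria and particles, had -2.56 and -2.45 in cKO and -3.75 and -3.87 in WT, a rise of 1.30 (SE 0.065, adjusted p = 0.0028), or 2.47-fold. Its processed signal was only 237 and 265 in cKO and 94.2 and 90.3 in WT, though well above background on all 4 arrays. Msr1, another scavenger receptor, fell by 0.61 (adjusted p = 0.0057), and its other probe by 0.63. The processed signal of Msr1 was also low, 128 and 137 in cKO and 172 and 192 in WT. The call of Msr1 was lost without cKO replicate 1 (-0.58) or WT replicate 2 (-0.55), with normexp and quantile normalization (-0.44), and with the 75th percentile taken over spots above background on all arrays (-0.57). Lyve1, a hyaluronan receptor of lymphatic vessels and of some macrophages, fell by 0.73 (adjusted p = 0.0024). The other probe of Lyve1 gave -0.38, and with the mean of both it was not called (-0.55). Blood and lymphatic endothelial markers were lower for 9 of 9 genes, 1 of them called (Emcn, -0.79). Their summed scaled signal was 11.2 and 11.3 in cKO against 14.9 and 15.0 in WT. Of those known from lymphatic vessels, none was called: Prox1 had -0.24 (adjusted p = 0.44, pools overlapping), Flt4 -0.20 (adjusted p = 0.22) and Pdpn -0.39 (adjusted p = 0.012). The part of the endothelial markers in the Lyve1 value was not tested. The brightest genes of the list, Clec10a and Cbr2, had -0.20 and -0.15. Over the alternatives Clec10a came as near to 0 as -0.057, with an adjusted p of up to 0.31, and Cbr2 as near as -0.0051, with an adjusted p of up to 0.886.

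None of 20 other Langerhans and dendritic cell genes was called by limma (14 had an unadjusted p under 0.05), and their median of 0.12 was the one positive median among the 7 lists, although 8 of the 20 were below 0. Cd24a, a surface glycoprotein also found on keratinocytes, had 3.22 and 3.28 in cKO and 2.82 and 2.83 in WT, a change of 0.42 (adjusted p = 0.0051). Cd74, the invariant chain of MHC class II, had 0.16 (adjusted p = 0.060), and 0.33 with either quantile setting. Epcam and Ly75 are known from Langerhans cells and are named here after their values were seen. They had 0.41 (adjusted p = 0.0067) and 0.50 (adjusted p = 0.030), beside the 0.39 of Cd207. Ly75 was dim, with a processed signal of only 137 and 138 in cKO and 94.8 and 82.2 in WT. Over the alternatives the change of Ly75 ran from 0.31 to 0.62. In the same list Irf4, a transcription factor of dendritic cells, had -0.41 (adjusted p = 0.0072), and Xcr1, a chemokine receptor of cross-presenting dendritic cells, had -0.20 (adjusted p = 0.024). Both were also named after their values were seen. Epcam is also made by follicle epithelium, and the hair shaft genes were higher in the same pool, as given above. Basal epidermis genes had a median of -0.09, with 5 of 7 below 0 and none of 7 called by limma. The 2 with an unadjusted p under 0.05 were both higher in cKO. They were Krt14 (0.31, adjusted p = 0.010) and Trp63 (0.29, adjusted p = 0.0078). Without WT replicate 1, Ly75 (0.62) and Cd209a (-0.62, against -0.32 with all arrays) were called.

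Of 7 other Fc receptor genes, 2 fell, with a median of -0.27, and all 7 were below 0. Fcgr1, the high-affinity receptor for antibody, had 0.70 and 0.65 in cKO and 1.32 and 1.34 in WT, a fall of 0.65 (SE 0.032, adjusted p = 0.0027), called under all 16 alternatives. Its other probe gave -0.54, short of 1.5-fold. Fcer1a, a chain of the receptor for immunoglobulin E that mast cells carry, fell by 0.62 (adjusted p = 0.0095). Its processed signal was only 51.7 and 47.7 in cKO and 69.2 and 68.8 in WT. The call was lost without cKO replicate 2 (-0.53) and with normexp and quantile normalization (-0.27). It was also lost with the percentile over spots above background on all arrays (-0.58). Mast cell markers were lower for 4 of 6 measured genes, with Cma1 called lower (-0.69) and Hdc higher (1.01). Cma1 was not called with normexp and quantile normalization (-0.57), nor by its other probe (-0.57). Their summed scaled signal was 24.7 and 24.6 in cKO against 35.2 and 33.8 in WT, Ms4a2 did not pass the filter on dim probes, and their part in the Fcer1a value was not tested. Fcer1g, the chain shared by these receptors, had -0.27 (adjusted p = 0.017; -0.16 and -0.18 with the quantile settings), and Fcgrt, which recycles antibody, had -0.07 (0.021 with either quantile setting).

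Lysosome and lysozyme genes lay close together: none of 16 was called by limma (14 had an unadjusted p under 0.05), 14 of 16 were below 0, and the median was -0.22. The brightest were Laptm4a (-0.25, adjusted p = 0.010; -0.0022 and -0.028 with the quantile settings) and the protease Ctsd (-0.07, adjusted p = 0.103; 0.094 and 0.14 with the quantile settings). Of 12 measured macrophage activation genes, 1 fell (Chil3) and 1 was called higher (Il12b). Chil3, a chitinase-like protein of alternatively activated macrophages, had -3.12 and -3.22 in cKO and -2.12 and -2.19 in WT, a fall of 1.02 (SE 0.054, adjusted p = 0.0030). The brightest genes of the list, Retnla and Arg1, are also known from that state and had -0.05 (adjusted p = 0.241; 0.097 and 0.12 with the quantile settings) and 0.0041. Il12b, a cytokine subunit, was not well above background in WT and was at least 1.11-fold higher in cKO, a bound short of 1.5-fold. With normexp and quantile normalization it was not called (0.36).

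**Figure D4:**
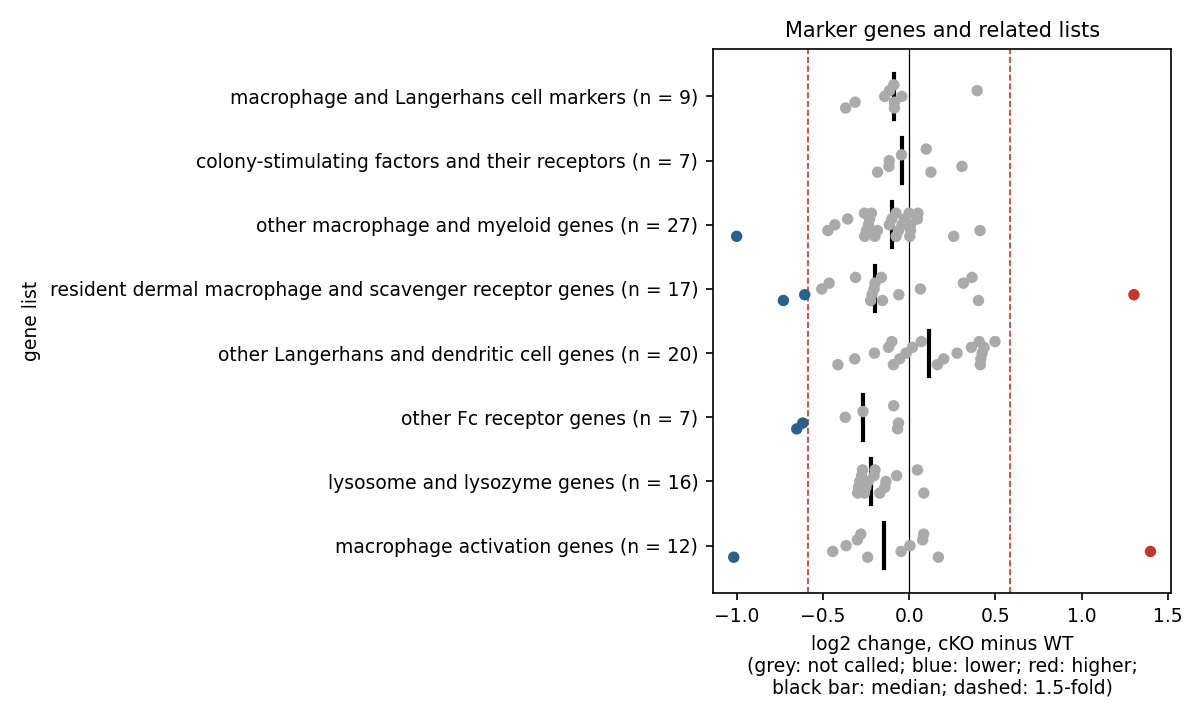
Points are the log2 change (cKO minus WT) of each measured gene, by its brightest probe, in the marker list and the 7 related lists, and black bars are medians (-0.09 for the markers, 0.12 for Langerhans and dendritic cell genes). Blue points (6) are genes that fell, red points (2) genes called higher (one of them, Il12b, not well above background in WT), grey points were not called, and dashed lines mark 1.5-fold.

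The 3 related genes whose values were nearest to those of Csf1r probe 1 over the 4 arrays, each centred on its own mean, were Cd40, Fcgrt and Ctsd, at Euclidean distances of 0.014, 0.020 and 0.022 on the log2 scale among 106 genes compared. Their changes were -0.09, -0.07 and -0.07 beside the -0.09 of Csf1r. The genes were picked by their values on the same arrays, so this closeness was set by the choice and supports nothing. The likeness rests on 4 arrays of 2 pools.

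Markers of other leukocytes gave no single direction. T cell markers had 0 of 8 called by limma (4 had an unadjusted p under 0.05), with a median of -0.09. Of 10 neutrophil markers only 3 were measured, of which Mpo rose (0.70, but not called at 0.57 with normexp and quantile normalization) and S100a9 fell (-0.70). Elane and Cxcr2 did not pass the filter on dim probes, and Ly6g was matched to no probe. Of 5 B cell markers 2 were measured and neither was called by limma (0 had an unadjusted p under 0.05). Among other tissues of the sample, adipocyte genes were below 0 for 6 of 7, 3 of them called (Gpd1 -1.26 and Lep -0.97 among them). Skeletal muscle genes were below 0 for 7 of 7, 4 of them called (Neb -0.87 and Casq1 -0.84 among them). Fibroblast genes were below 0 for 6 of 7, with a median of -0.13. Of these Lum fell (-0.63, but not called at -0.43 and -0.44 with the quantile settings), and Dpt, the one gene above 0, rose (0.77). The part of these shifts in the small lower values of the macrophage markers was not tested.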

How the data were processed

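The 4 samples were hybridised to 1 Agilent one-colour slide (mm9 design) scanned at 1 time, which leaves no batch to fit. Per the file headers, the authors extracted spot intensity with Feature Extraction 10.7.3.1, with spatial and multiplicative detrending. The deposited series values are a ratio: the same intensity divided by 1 number per array (column medians 0.101, 0.0983, 0.0987 and 0.101), with the direction kept and no centring of genes. Quality flags, other values of 0 or 1, are in the same deposited files.

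Control spots were left out and outlier spots set to missing. The log2 intensity was scaled to the array's 75th percentile over non-control spots and averaged over a probe's spots. Probes passed the filter on dim probes if flagged well above background on both arrays of a pool. limma 3.58.1 in R 4.3.3 (lmFit, eBayes, two-sided, no covariates) was fitted on all 26070 of these, with Benjamini-Hochberg adjustment over them. Calls needed an adjusted p under 0.05 and 1.5-fold; "rose" and "fell" are used of called genes only. Genes were read from their brightest kept probe. A fold given as "at least" uses, in the dim pool, the dimmest signal still flagged above background or the probe's own where that is higher. Names came from a RefSeq table of GRCm38.p6: 26690 probes matched by accession, 5189 by symbol and 952 by older symbol, and 8343 kept the file's name.

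The members and lists were chosen with earlier results of these data known. Named genes are the members, up to 4 called and the 2 brightest of each related list, up to 2 called of each other list, Fgf18 and the 3 nearest to Csf1r. Lyz1, Epcam, Ly75, Irf4, Xcr1, Adgre1, Flt3, Cybb, Cd209a, Krt14, Trp63, Prox1, Flt4, Pdpn, Ms4a2, Elane, Cxcr2 and Ly6g were named after their values were seen. So were Mgl2, Cd209b and Cd209f. The number of arrays limits the precision with which the 2 pools are compared. With 1 pool per genotype, the spread between pools of a genotype was not measured. Alternatives changed the background correction, scaling, filter, outlier spots, probe summary or moderation, added the replicate number, or dropped 1 array. Also used were data.table (version 1.17.8), Python 3.11.15, pandas 2.3.3, Biopython 1.88 and matplotlib 3.10.9.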

Additional observations from a re-analysis of the deposited data

How the results depend on the processing

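No marker probe was called under any of the 16 alternatives. With normexp and quantile normalization 1520 probes were called in place of 2535, 5 related genes in place of 8, and the median over the marker genes was -0.0071, against -0.015 with quantile normalization, -0.14 with probes of a gene averaged and -0.09 as reported. The percentile over spots above background on all arrays gave 6 related genes. Leaving out single arrays gave 2261 to 2693 called probes, 7 to 10 called related genes and a marker median between -0.11 and -0.09. Signs turned for values that were not called. With normexp and quantile normalization these were Csf1r probe 1 (0.014), Lyz2 probes 1 and 2 (0.012 and 0.054), Csf2ra (0.062), Tyrobp (0.094), Fcgrt (0.021), Ctsd (0.094) and Retnla (0.097). With quantile normalization these were Lyz2 probes 1 and 2 (0.0092 and 0.040), Fcgr3 probe 1 (0.0012), Csf2ra (0.060), Tyrobp (0.092), Fcgrt (0.021), Ctsd (0.14) and Retnla (0.12). With the percentile over spots above background, Lyz2 probe 2 had 0.0046. Leaving out single arrays, Csf1r probe 2 ran from -0.11 to 0.0081 and Arg1 from -0.0096 to 0.018, with -0.0081 without WT replicate 2. The cause was not tested. With the replicate number as a block, 2449 probes were called. Same-numbered arrays deviated together with r = -0.02 across probes, so the numbers do not pair the arrays, and the block called no marker probe. The requirement of signal above background on all arrays gave no value for Il12b, Flt3, Krt34 and Krt25, and settings per gene none for second probes. Where 1 array of a pool is left out, the lone one is assumed to vary like the other pool. Probes near background, such as Csf1r probe 3 and Mpeg1 probe 2, have the widest intervals.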
